A study of Mus musculus with 30 samples.

Results

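The genes described here encode the proteins of the mitochondrial ribosome of the mouse. They were chosen by symbol as Mrpl or Mrps followed by a number and at most 1 letter, with pseudogenes left out, which gave 77 protein-coding genes of 38561 in the count table. Of these, 76 passed the filter on low counts and were tested. Mrpl53 was at 0 counts in all 30 libraries, which allows up to 3 counts per library, or 0.0625 to 0.098 CPM, where CPM is a gene's count scaled to the size of its library. Another listed gene, Gm42688, overlaps exons of Mrpl53 on the same strand. The limit therefore holds only if no reads of Mrpl53 were lost to this overlap, which was not tested. Mrpl33 was not analysed here.

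Mitochondria translate the few proteins encoded in their own genome on a dedicated ribosome, and those proteins are core parts of the respiratory chain. The ribosomal RNAs come from the mitochondrial genome, whereas all of the ribosomal proteins are nuclear genes whose products are imported. Many of these proteins descend from bacterial ribosomal proteins and others occur only in mitochondria. In adipose progenitors, mitochondrial content and respiration increase as the cells become adipocytes.

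The cells were adipose-derived stem cells, that is, stromal cells of the inguinal fat pad, from 30 male C57BL6/J mice of a diet-induced obesity colony. Young obese mice (n = 8) and aged obese mice (n = 6) ate a diet with 60% of its energy as fat, from lard, from weaning on, whereas young lean mice (n = 8) and aged lean mice (n = 8) ate control chow. Young mice were killed at 20 weeks of age and aged mice at 52 weeks. Cells were sorted as Sca-1+, CD34+, CD31-, CD45- and Ter119-, expanded in culture to passage 2 and frozen mouse by mouse, so each library is 1 mouse and the RNA is that of cultured cells. Of 12 mice bought per group, 8 aged obese mice were alive at day 360, so the aged obese group holds survivors. In bulk RNA of this kind, fewer cells with a transcript and less of it per cell cannot be told apart.

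Libraries held 30597765 to 47970233 counts assigned to genes. Between 3.94% and 8.75% of reads fell outside annotated features and between 2.69% and 3.41% were ambiguous between genes. The 7 listed adipose stem cell markers summed to 3240 to 5260 CPM across the 30 libraries. Ly6a, which encodes Sca-1, had 176 to 1250 CPM, whereas Cd34, the other marker used to sort the cells in, had 0.193 to 38 CPM in these passaged cells. Pecam1, which encodes CD31, was at most 0.278 CPM and Ptprc, which encodes CD45, at most 0.029 CPM. The 3 erythroid markers summed to at most 0.336 CPM and the 5 mammary epithelial markers to at most 2.78 CPM. The 6 endothelial markers reached 20.9 CPM and the 8 haematopoietic markers 38.9 CPM, for cell types that the sort was set to remove. Summed mural markers had a median of 271 CPM in aged obese libraries and 114 CPM in aged lean libraries, and of 146 CPM in young obese libraries and 121 CPM in young lean libraries. Summed adipocyte markers ran from 20.7 to 138 CPM, with medians of 26.8 CPM in young obese and 43.4 CPM in young lean libraries and of 50 CPM in aged obese and 36.6 CPM in aged lean libraries. Of the 5, Lep was at 0 in all libraries and 3 were tested in young mice, with a median log2 fold change of -2.46 and 0 calls. Adipoq was at 0.341 ± 0.346 CPM in young obese and 2.44 ± 2.93 CPM in young lean mice (log2 fold change -2.82, edgeR adjusted p = 0.0717), and Plin1 at 0.309 ± 0.196 CPM in young obese and 1.72 ± 2.6 CPM in young lean mice (-2.46, adjusted p = 0.0791; SD, n = 8 each). Skeletal muscle markers ran from 47.1 to 571 CPM. The part of these other cell types in the results below was not tested.

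The members were expressed at moderate and uneven levels. Per kilobase of transcript, averaged over all libraries, they spanned 3.14 CPM per kb for Mrpl1 to 169.7 CPM per kb for Mrpl52. The levels next to the top were those of Mrpl17 at 111 CPM per kb, Mrpl20 at 107.4 CPM per kb and Mrpl54 at 88.3 CPM per kb, all proteins of the large subunit. At the lower end Mrpl19 had 3.54 CPM per kb and Mrps25 had 3.43 CPM per kb, close to Mrpl1. This order depends on the annotated length, and which transcripts the cells express was not measured. Without division by length, Mrps25 had 20.85 CPM and Mrpl19 17.73 CPM, and Mrps34 was the lowest tested member at 4.44 CPM. Genes for proteins of the same particle had transcript levels that differed far more between genes than between libraries. The standard deviation of log2 CPM over the 30 libraries ran from 0.154 for Mrpl43, 0.155 for Mrpl10 and 0.157 for Mrps5 to 0.325 for Mrpl14, 0.348 for Mrpl49, 0.373 for Mrpl12 and 0.455 for Mrps6. Mrpl12 is the stalk protein to which translation factors bind, and Mrps6 is a small-subunit protein with a bacterial homologue. Exons of Mrps6 overlap those of Slc5a3 on the same strand, so its count is uncertain.

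**Figure D1:**
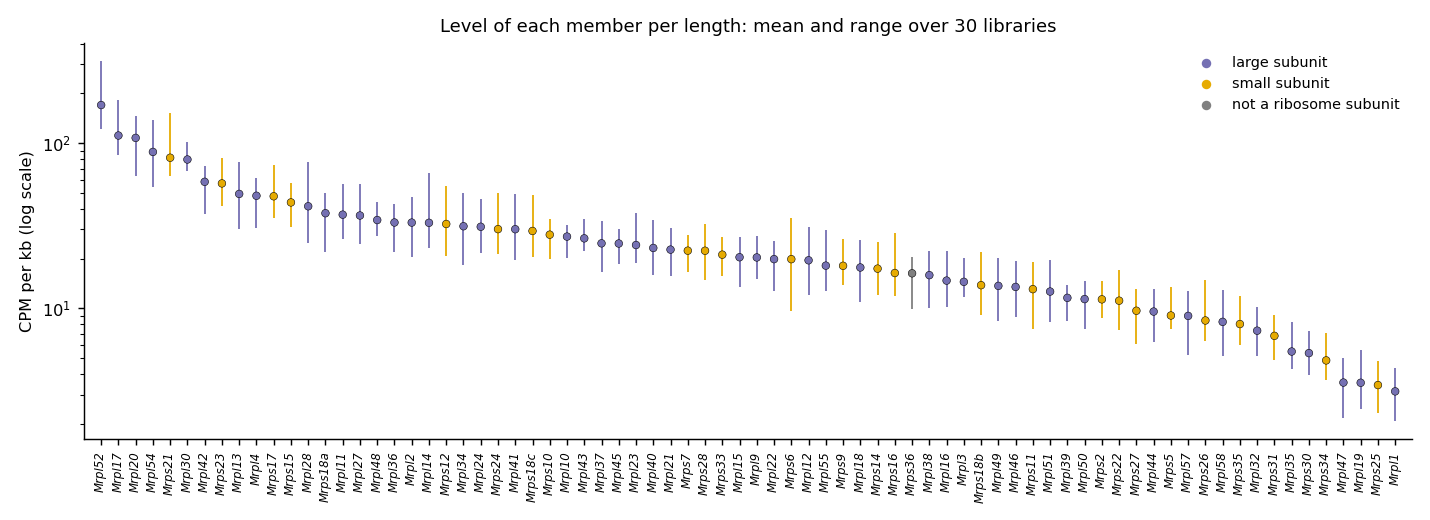
Level of each of the 76 members with counts, as CPM per kb of transcript on a log scale, ranked by the mean. Points are means and lines run from the lowest to the highest of 30 libraries; Mrpl52 is highest at 169.7 CPM per kb and Mrpl1 lowest at 3.14 CPM per kb, and the 4 highest are of the large subunit.

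The members moved together from library to library. Each library was summarised by the median over the 76 members of their log2 deviation from each gene's mean, together with the number of members above their own mean. Young obese 1 and young obese 2 stood apart, each at a median deviation of -0.42, with 2 and 0 members above their means. The other 6 young obese libraries lay between -0.02 and 0.17, with 29 to 60 members above their means. Young lean libraries were spread from -0.20 in young lean YL512 to 0.44 in young lean 26. Aged obese libraries ran from -0.26 to 0.23 and aged lean libraries from -0.28 to 0.19. All 4 groups overlapped, and the range within each group was wider than the distance between any group means, which were -0.07 ± 0.223 (SD, n = 8) in young obese, 0.118 ± 0.206 (n = 8) in young lean, -0.0567 ± 0.182 (n = 6) in aged obese and 0.0062 ± 0.152 (n = 8) in aged lean libraries. Large and small subunits went together in each library that stood apart, with medians of -0.44 and -0.37 in young obese 1 and of 0.43 and 0.52 in young lean 26, for the large and the small subunit in that order. Other gene sets moved the same way in these libraries. Nuclear oxidative phosphorylation genes had medians of -0.45 in young obese 1 and 0.72 in young lean 26. Mitochondrial ribosome assembly factors had -0.35 and 0.40, and cytosolic ribosomal protein genes -0.20 and 0.82, in that order.

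**Figure D2:**
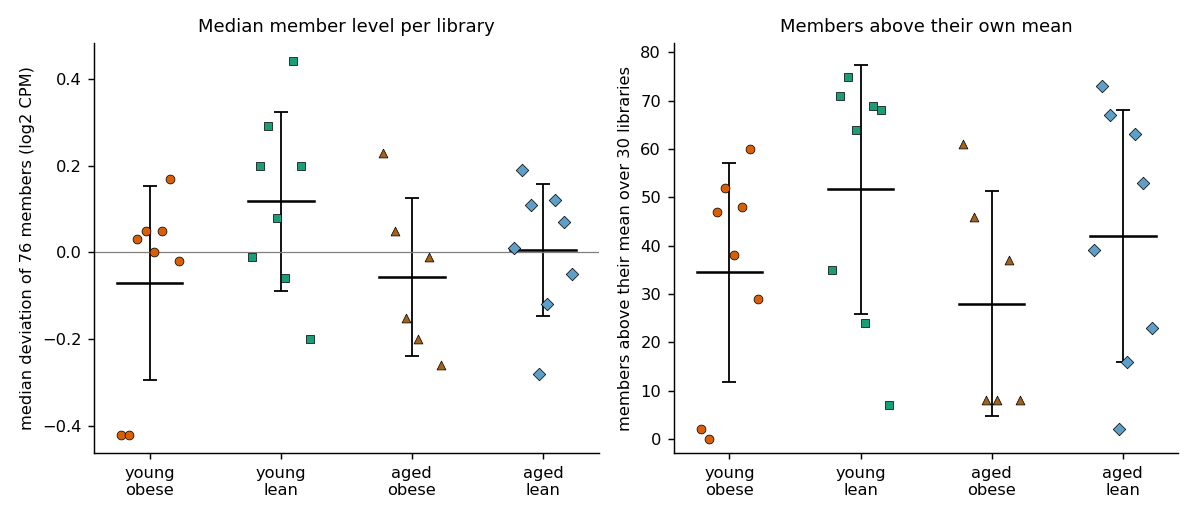
Left, median log2 deviation of the 76 members in each library; right, the number of members above their own mean over 30 libraries. Points are libraries, horizontal lines group means and bars 1 SD; young obese 1 and 2 lie at -0.42, below all other libraries, and young lean 26 lies highest at 0.44.

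Young obese 1 and 2 were not copies of each other. Their counts differed by a chi-square of 8.77 per gene, above the 6.79 of young obese 19 and 21, the closest pair of any group. Their members differed from each other by a median of 0.07 on the log2 scale. From the other young obese libraries young obese 1 and 2 differed by a chi-square of 167 to 399 per gene. Those others differed among themselves by 6.79 to 191. Mice were housed 4 to 5 per cage, and the labels name no cage or batch. Whether libraries that lie close share one was not tested. No pair of libraries agreed within sampling noise, and each was counted as 1 replicate.

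The first comparison asked what diet-induced obesity did in cells of young mice. In young obese mice 12 of 76 members (15.8%) fell and 0 rose, by edgeR's quasi-likelihood test with Benjamini-Hochberg adjustment over all 14438 genes tested. Over all genes, 5.37% fell and 3.46% rose, 8.83% in either direction. The fold change was negative for 69 of the 76 members, against 52.4% of all genes, and its median was -0.22 on the log2 scale against -0.02 over all genes. At an unadjusted p below 0.05 there were 38 members, against 28.3% of all genes. No member had ranges in young obese and young lean mice that did not overlap; over all genes 0.741% were lower and 0.866% higher without overlap.

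Of the large subunit, 7 of 49 members fell. Mrpl14, a protein of the face that meets the small subunit, changed most. It had 14.9, 18.01 and 20.6 CPM as lowest, median and highest value in young obese mice, against 16.4, 23.8 and 42.6 CPM in young lean mice. All 8 young obese libraries lay below the young lean median, yet the ranges overlapped and young lean 26 alone held the top value. The log2 fold change was -0.54 ± 0.14 (SE; edgeR adjusted p = 0.0231).

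Mrpl27 is the homologue of bacterial L27, which reaches into the peptidyl transferase centre, where peptide bonds form. Young obese mice had 18.6, 24.6 and 27.8 CPM (lowest, median, highest), against 25.5, 31.1 and 42.9 CPM in young lean mice. The 2 lowest values of all 30 libraries were those of young obese 1 and 2, and all 8 young obese libraries were below the young lean median. Its log2 fold change was -0.40 ± 0.10 (edgeR adjusted p = 0.0198), the smallest adjusted p of any member.

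Mrpl54, which occurs only in mitochondrial ribosomes, had 32.5, 46.6 and 53.0 CPM in young obese mice, against 41.8, 61.7 and 83.4 CPM in young lean mice. It fell by 0.45 on the log2 scale (SE 0.12, edgeR adjusted p = 0.0297). Mrpl23 sits at the mouth of the tunnel through which the new protein leaves, and had 13.03, 14.7 and 16.6 CPM in young obese mice, against 13.9, 18.3 and 26.01 CPM in young lean mice. Its log2 fold change was -0.38 ± 0.10 (edgeR adjusted p = 0.0229). For both genes each young obese library was below the young lean median while the ranges overlapped.

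Mrpl58 encodes a peptidyl-tRNA hydrolase that is built into the large subunit and is known for freeing stalled ribosomes. It had 12.97, 19.8 and 22.2 CPM in young obese mice, against 18.3, 24.2 and 32.6 CPM in young lean mice. Young obese 1 and 2 held the lowest 2 values, and the log2 fold change was -0.36 ± 0.12 (edgeR adjusted p = 0.0461). Mrpl32, a protein cut to its mature form by the m-AAA protease before assembly, had 15.5, 21.03 and 23.5 CPM in young obese mice, against 18.9, 24.5 and 30.5 CPM in young lean mice (log2 fold change -0.30 ± 0.09, edgeR adjusted p = 0.0404). Mrpl30, a homologue of a bacterial protein, had 46.2, 47.0 and 50.9 CPM in young obese mice, against 48.2, 55.1 and 67.4 CPM in young lean mice. Its decrease was the smallest of the 12, at -0.24 ± 0.07 (edgeR adjusted p = 0.0446).

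Of the small subunit, 5 of 26 members fell, and all 5 have bacterial homologues. Mrps16, whose human orthologue is mutated in a combined oxidative phosphorylation deficiency, had 30.4, 37.2 and 42.0 CPM in young obese mice, against 36.0, 48.5 and 73.1 CPM in young lean mice. All 8 young obese libraries were below the young lean median, and the log2 fold change was -0.43 ± 0.11 (edgeR adjusted p = 0.0218). Mrps24, the counterpart of a bacterial protein at the entry of the mRNA channel, had 21.1, 27.3 and 31.3 CPM in young obese mice, against 24.3, 34.03 and 49.6 CPM in young lean mice. It fell by 0.38 on the log2 scale (SE 0.11, edgeR adjusted p = 0.0341).

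Mrps21 had 25.4, 29.3 and 30.9 CPM in young obese mice, against 27.8, 34.3 and 61.5 CPM in young lean mice. The highest young lean value was that of young lean 26, with the next at 40.9 CPM, and the log2 fold change was -0.36 ± 0.11 (edgeR adjusted p = 0.0424). Mrps9 had 19.6, 22.6 and 26.4 CPM in young obese mice, against 23.1, 27.2 and 37.3 CPM in young lean mice (log2 fold change -0.29 ± 0.08, edgeR adjusted p = 0.0303). In both, each young obese library was below the young lean median.

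The 3 paralogs of bacterial S18 differed in their values. Mrps18c had 13, 17.1 and 21.1 CPM in young obese mice, against 17.2, 20.5 and 30.96 CPM in young lean mice, and fell by 0.36 on the log2 scale (SE 0.11, edgeR adjusted p = 0.0457), with 7 of 8 young obese libraries below the young lean median. Mrps18a, which sits in the large subunit despite its symbol, had 16.6, 26.8 and 28.8 CPM in young obese mice, against 24.5, 29.5 and 37.8 CPM in young lean mice, and did not pass (log2 fold change -0.27 ± 0.10, edgeR adjusted p = 0.0831). Mrps18b had 8.56, 12.6 and 14.1 CPM in young obese mice, against 7.28, 10.7 and 12.1 CPM in young lean mice, with a positive log2 fold change of 0.20 ± 0.14 that did not pass (edgeR adjusted p = 0.363). Whether the paralogs differ from each other was not tested.

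**Figure D3:**
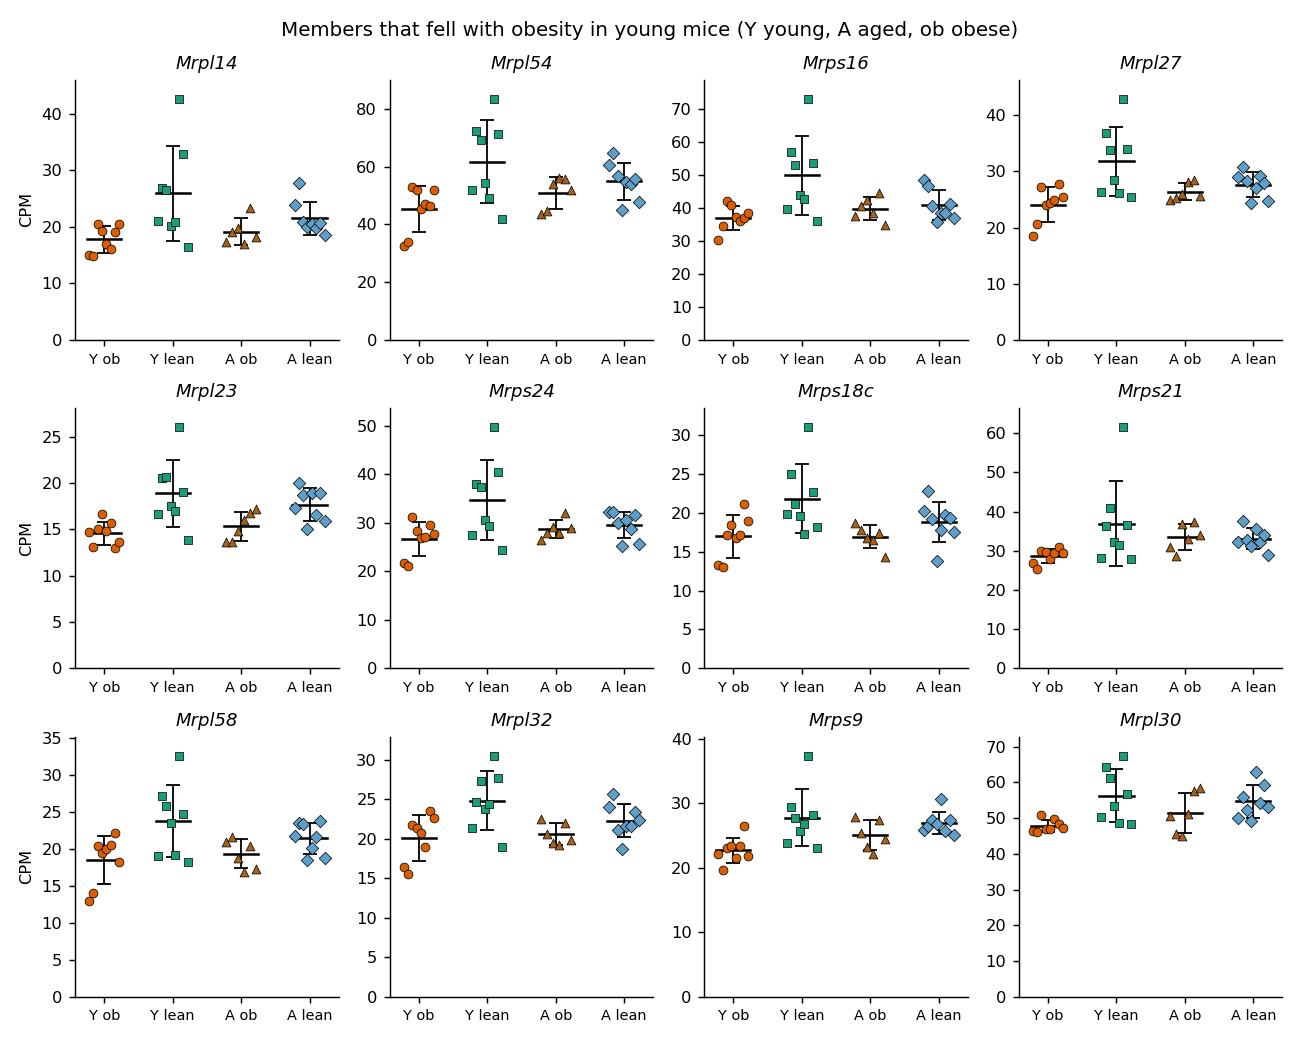
CPM in each of 30 libraries of the 12 members that fell in young obese mice, ordered by log2 fold change from Mrpl14 (-0.54) to Mrpl30 (-0.24). Points are libraries, lines means and bars 1 SD, with axes from 0; the young obese values lie low in each panel and overlap the wide young lean values.

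Only 7 of the 76 members had a positive fold change in young obese mice, and Mrps2 had the highest. This small-subunit protein had 22.3, 25.2 and 29.7 CPM in young obese mice, against 18.1, 21.8 and 23.8 CPM in young lean mice. All 8 young obese libraries were above the young lean median, but the log2 fold change of 0.26 ± 0.09 did not pass (edgeR adjusted p = 0.0567); with size factors by the relative log expression method it did. Mrps2 was named after its values were seen. Other members known for a role beyond structure did not pass either. Mrpl12 had a log2 fold change of 0.01 ± 0.19, Mrpl44, which has an RNase III-like fold, had -0.11 ± 0.13, and Mrps12, a protein of the decoding centre, had -0.27 ± 0.13. Mrps30, a large-subunit protein in spite of its symbol, had -0.16 ± 0.10. Mrps36, now known as a component of 2-oxoglutarate dehydrogenase and not of the ribosome, had -0.25 ± 0.11 (edgeR adjusted p = 0.152).

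By descent, 10 of 45 members with bacterial homologues fell, with a median log2 fold change of -0.25, and 2 of 30 mitochondria-specific members fell, with a median of -0.17. By subunit the medians were -0.19 for the large and -0.25 for the small subunit. Shorter transcripts had the lower values: 8 of the 38 members at or below the members' median length of 1095 bases fell, with a median of -0.27, and 4 of the 38 longer ones, with a median of -0.11. Across the 76 members Spearman's rho of fold change with length was 0.45, as a description, since all members share the same libraries. These splits were not tested against each other, and members with bacterial homologues were also the shorter ones, with a median length of 998 bases, against 1382 bases for mitochondria-specific members.

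Libraries also differed in how level went with transcript length. Over all genes, each gene's log2 deviation from its mean over 30 libraries was set against transcript length. The slope per doubling was 0.056 ± 0.0564 in young obese libraries (SD, n = 8) and -0.0437 ± 0.0974 in young lean libraries (n = 8). It was 0.151 in young obese 1, 0.142 in young obese 2 and -0.214 in young lean 26. The members are short, with a median of 1095 bases against 2064 bases over all tested genes. With an offset for length and GC content in the fit, 3 members (Mrps16, Mrpl27 and Mrpl32) fell in young obese mice and the median over 76 members was -0.11.

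The 12 calls depended on which libraries were in the fit. Without young obese 1 and 2 together, 0 of 76 members passed, the median was -0.11 and 143 genes passed in all, against 1275 with every library; Mrpl14 then had a log2 fold change of -0.47 and Mrps16 of -0.37. Without young lean 26, 0 members and 201 genes passed, and without young lean 7, 0 members and 302 genes passed. Without young lean YL512, which had the lowest members of its group, 24 members fell and 1 rose, while calls over all genes went up as well, to 2197, with 8.08% lower and 7.19% higher. The median over members stayed below 0 in each of 30 fits that left out 1 library, between -0.25 and -0.17.

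Promoters were searched for letters recognised by factors known to act on nuclear genes for mitochondrial proteins. The letters searched were CCGGAAG for ETS-family factors such as GABP, GCGCATG for NRF1 and AAGATGG for YY1, each a core of the longer site; overlapping matches were merged. RefSeq promoter windows (GRCm38.p6, 250 bases before to 50 bases after the start) were at hand for 68 of the 77 members, and matches on either strand are in capitals. Of the 11 fallen members with a window 7 (63.6%) held at least 1 of these motifs, against 37 of 68 members (54.4%) and 31.5% of tested protein-coding genes. Of these 7, the windows of Mrpl27 and Mrps16, which had the smallest adjusted p in young mice, and of Mrpl58 and Mrpl32, whose roles were given above, are shown as examples; those of Mrps18c, Mrps21 and Mrps24 are not. The Mrps16 window shown is the downstream of a pair of RefSeq starts for that gene, and the other window held no match. Each is read 5′ to 3′ on the strand of its gene.
Mrpl27, chr11:94653541-94653840, plus strand: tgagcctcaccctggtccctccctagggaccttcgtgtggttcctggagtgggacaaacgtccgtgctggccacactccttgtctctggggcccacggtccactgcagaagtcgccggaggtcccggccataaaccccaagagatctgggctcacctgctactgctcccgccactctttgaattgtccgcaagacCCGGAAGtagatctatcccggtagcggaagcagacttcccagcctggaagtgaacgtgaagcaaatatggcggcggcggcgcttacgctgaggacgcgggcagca
Mrps16, chr14:20393441-20393740, minus strand: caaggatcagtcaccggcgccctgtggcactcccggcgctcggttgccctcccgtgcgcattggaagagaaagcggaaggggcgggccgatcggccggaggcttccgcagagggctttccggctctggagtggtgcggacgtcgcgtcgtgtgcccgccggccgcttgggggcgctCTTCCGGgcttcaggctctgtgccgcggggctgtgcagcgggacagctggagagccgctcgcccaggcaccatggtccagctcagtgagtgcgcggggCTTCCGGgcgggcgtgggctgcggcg
Mrpl58, chr11:115403502-115403801, plus strand: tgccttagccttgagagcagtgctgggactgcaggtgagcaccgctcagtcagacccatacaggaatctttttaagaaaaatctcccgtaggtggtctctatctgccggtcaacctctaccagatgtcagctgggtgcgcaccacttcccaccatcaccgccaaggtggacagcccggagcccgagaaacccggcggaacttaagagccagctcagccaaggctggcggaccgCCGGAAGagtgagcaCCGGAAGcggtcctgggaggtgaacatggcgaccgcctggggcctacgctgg
Mrpl32, chr13:14612988-14613287, minus strand: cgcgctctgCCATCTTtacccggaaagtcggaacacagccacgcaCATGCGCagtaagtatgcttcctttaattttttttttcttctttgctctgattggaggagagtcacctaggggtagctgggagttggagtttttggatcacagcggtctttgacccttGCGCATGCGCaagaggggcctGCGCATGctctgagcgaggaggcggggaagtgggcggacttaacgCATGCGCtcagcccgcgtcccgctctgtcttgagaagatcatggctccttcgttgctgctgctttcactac

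Mrpl27 held a single ETS match, Mrps16 and Mrpl58 held 2 each, and Mrpl32 held 5 of the NRF1 core, 2 of them overlapping on opposite strands, and 1 of the YY1 core. Among the 68 members with a window, 25 (36.8%) held the ETS letters, against 19.5% of 10163 tested protein-coding genes and 9.93% of all 27025 genes with a window. The NRF1 letters were in 7 members (10.3%), against 7.9% of tested protein-coding genes and 4.41% of all genes, and the YY1 letters in 13 members (19.1%), against 8.34% and 7.28%. Among the 11 fallen members with a window, 5 held the ETS letters, as did 19 of 56 other members. A match is a stretch of letters and not a measured site, and the shares were not tested.

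In aged mice, obesity had smaller values. None of the 76 members passed, where 0.222% of all genes did, and 1 member was at an unadjusted p below 0.05, where 12.7% of genes were. The fold change was negative for 57 members, against 48.8% of all genes, with a median of -0.05 against 0.01 over all genes. The smallest adjusted p was that of Mrpl45, a protein that fixes the ribosome to the inner membrane. It had 27.3, 30.9 and 38.4 CPM in aged obese mice, against 29.4, 36.8 and 44.2 CPM in aged lean mice, with overlapping ranges and a log2 fold change of -0.20 ± 0.10 (edgeR adjusted p = 0.373). Mrpl23 followed with -0.20 ± 0.10 (adjusted p = 0.42) and Mrpl49, a mitochondria-specific large-subunit protein, with -0.28 ± 0.17 (adjusted p = 0.533). DESeq2 and limma's voom also called 0 members here.

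**Figure D4:**
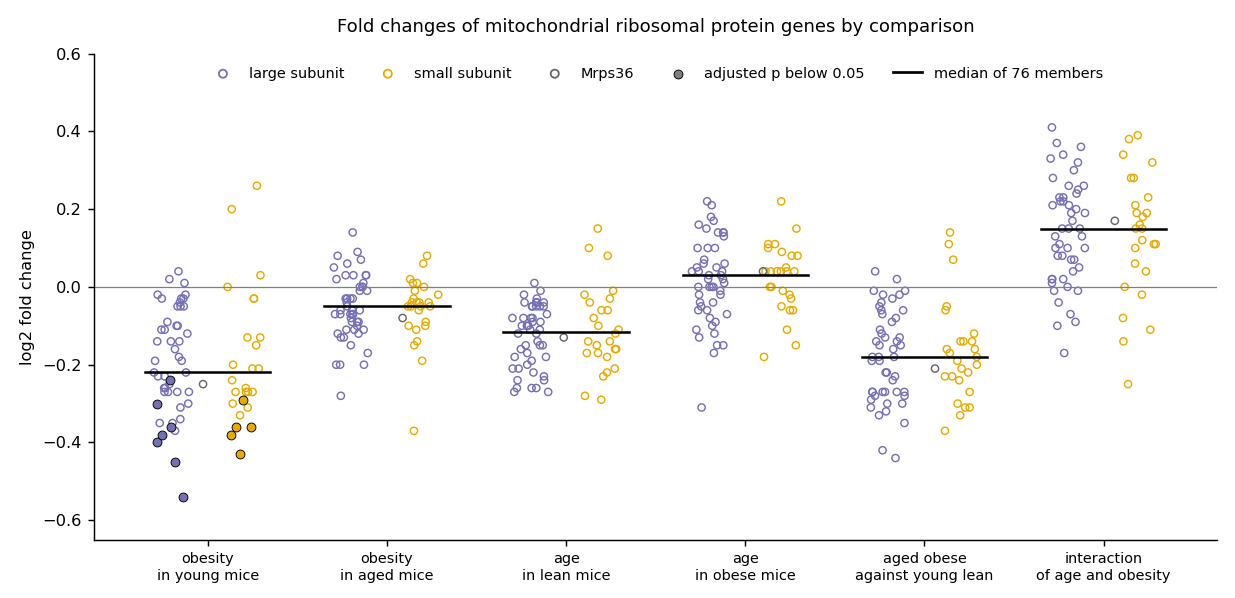
Log2 fold change of each of the 76 members in 6 comparisons, with filled points where the edgeR adjusted p was below 0.05. Black lines are medians over members; 12 filled points stand in the first comparison and 0 in the others, and all medians lie between -0.22 and 0.15.

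Age in lean mice moved no member past the threshold, as it moved no gene at all (0% of 14438); 5 members and 5.35% of genes were at an unadjusted p below 0.05, and DESeq2 and voom called 0 members. Fold changes were negative for 72 of 76 members, against 54.4% of all genes, and their median was -0.12 against -0.02. Mrps16 had 35.8, 39.5 and 48.6 CPM in aged lean mice, against 36.0, 48.5 and 73.1 CPM in young lean mice (log2 fold change -0.29 ± 0.11, edgeR adjusted p = 0.85). The values of Mrpl17, a large-subunit protein with a bacterial homologue, and of Mrps26, a mitochondria-specific small-subunit protein, were -0.26 ± 0.11 and -0.28 ± 0.12. In both, 8 of 8 aged lean libraries were below the young lean median, and young lean 26 held the highest young lean value of Mrps16, at 73.1 CPM.

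Age in obese mice likewise gave 0 members, where 3.07% of all genes passed, and 1 member was at an unadjusted p below 0.05, where 18.9% of genes were. Here 29 members had a negative fold change, against 48.2% of all genes, with a median of 0.03 against 0.01 over all genes. The smallest adjusted p belonged to Mrpl48, a mitochondria-specific large-subunit protein. It had 25.6, 31.3 and 35.6 CPM in aged obese mice, against 23.6, 26.5 and 28.2 CPM in young obese mice (log2 fold change 0.22 ± 0.09, edgeR adjusted p = 0.17). Mrps18a with 0.21 ± 0.11 and Mrps21 with 0.22 ± 0.12 came next. Limma's voom with sample weights called 8 members in this comparison, 1 higher and 7 lower, among 2870 genes. DESeq2 called 0 members among 855 genes, and without aged obese 10 and 12 together edgeR called 3, 1 higher and 2 lower, among 2679 genes.

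Aged obese mice set against young lean mice, the comparison in which 10.3% of all genes passed, again gave 0 members by edgeR, with 19 at an unadjusted p below 0.05 against 28% of all genes. Fold changes were negative for 71 of 76 members, against 51.2% of all genes, with a median of -0.18 against -0.01 over all genes. Mrpl45 came closest, with 27.3, 30.9 and 38.4 CPM in aged obese mice, against 34.5, 38.5 and 43.5 CPM in young lean mice. Its log2 fold change was -0.29 ± 0.10 (edgeR adjusted p = 0.0532), and all 6 aged obese libraries were below the young lean median. Mrps18c had 14.4, 17.1 and 18.7 CPM in aged obese mice, against 17.2, 20.5 and 30.96 CPM in young lean mice (-0.37 ± 0.12, adjusted p = 0.0548). Mrps35, a mitochondria-specific small-subunit protein, had -0.31 ± 0.11 (adjusted p = 0.0587). These values sat just outside the threshold, and DESeq2 called 1 member among 2075 genes, voom 2 among 695 genes, and edgeR without aged obese 10 and 12 called 4 among 1513 genes.

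Whether obesity acted differently in aged and young mice was tested as an interaction, which no member passed, against 0.00693% of all genes; 6 members and 8% of genes were at an unadjusted p below 0.05, and DESeq2 and voom called 0 members. Interaction values were negative for 14 members, against 46.5% of all genes, with a median of 0.15 against 0.02 over all genes. Mrps16 had 0.39 ± 0.16, Mrpl27 had 0.33 ± 0.14 and Mrpl52 had 0.41 ± 0.18, each with an edgeR adjusted p of 0.601. The 12 calls in young mice and the 0 calls in aged mice are therefore not shown to differ. All 6 comparisons use the same 4 groups and share libraries, so their values for a gene are not independent.

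Member levels also went with proliferation genes from library to library, a relation examined after the values were seen. A proliferation score was the median log2 deviation of 15 genes of DNA replication and mitosis, and it ran from -2.25 in aged obese 17 to 1.43 in aged obese 10. It was -1.28 in young obese 1 and -1.38 in young obese 2, against 0.57 to 1.39 in the other 6 young obese libraries and -0.56 to 0.60 in young lean libraries. With the score beside the group terms in edgeR, 58 of 76 members rose with it (76.3%) and 2 fell, where 25.3% of all genes rose and 26.5% fell. The median slope over members was 0.13 log2 units per unit of score, against -0.01 over all genes.

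Mrpl12 rose most, by 0.32 ± 0.04 per unit (edgeR adjusted p = 8.06e-08). Aged obese 10 and 12, which scored high, had 40.6 and 33.4 CPM of it, and the remaining aged obese mice 17.4 to 22.4 CPM. Young obese 1 and 2, which scored low, had 17.7 and 16.02 CPM, and the remaining young obese mice 27 to 37.3 CPM. Mrps6 rose by 0.30 ± 0.06 per unit, Mrps27, a pentatricopeptide repeat protein of the small subunit, by 0.28 ± 0.03 (edgeR adjusted p = 1.2e-09), Mrps22 by 0.28 ± 0.03 and Mrpl40 by 0.25 ± 0.03. The 2 members that fell with the score were Mrpl24, by 0.14 ± 0.04 per unit (adjusted p = 0.00451), and Mrpl48, with a slope of -0.07 ± 0.03 (adjusted p = 0.0303).

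The 12 members that fell in young obese mice had slopes between -0.03 and 0.11, with a median of 0.03, and the other 64 had slopes between -0.14 and 0.32, with a median of 0.14; both sets of values come from the same libraries. The relation was not the same in every group. Within young obese libraries alone 70 members rose with the score and 0 fell, where 26.3% of all genes rose and 26.8% fell. Within aged obese libraries 20 members rose and 1 fell, where 13.4% of genes rose and 12.6% fell, and within aged lean libraries 24 rose and 1 fell, where 13.7% rose and 14.1% fell. Within young lean libraries 0 members and 0 genes passed and the median slope was -0.29; young lean 26 had the highest members and the lowest score of its group. Without young obese 1 and 2, 39 members rose and 2 fell, where 24.7% of all genes rose and 24.5% fell. With the score as a covariate, obesity in young mice gave 39 members, 38 lower and 1 higher, among them all 12 of the fit without it, with a median of -0.25. Calls over all genes went up too, to 2668, with 10.8% lower and 7.63% higher.

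**Figure D5:**
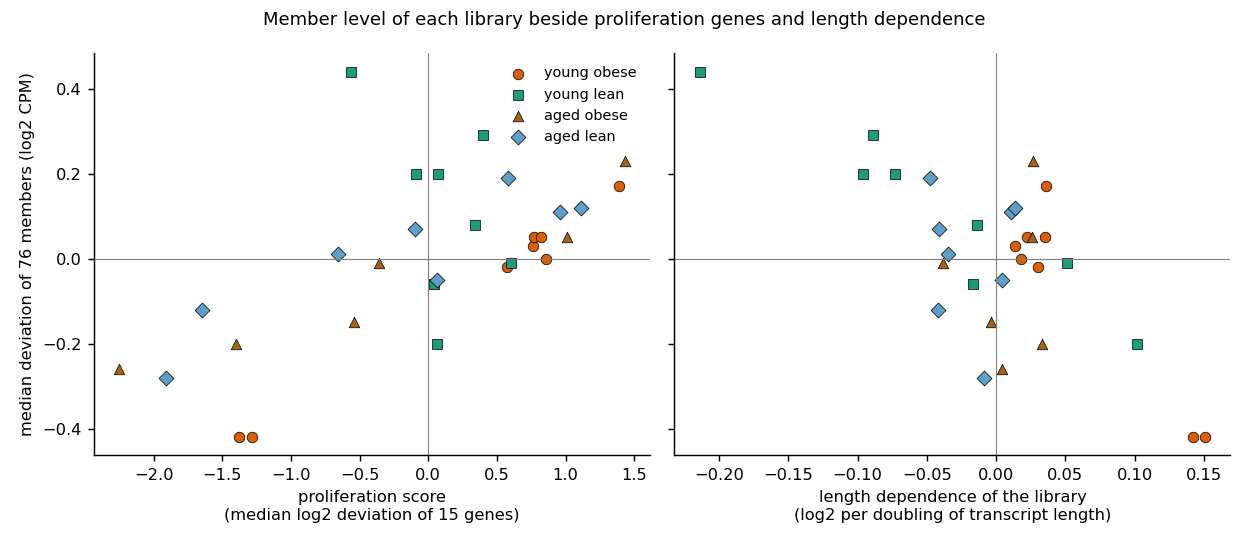
Median log2 deviation of the 76 members in each library (vertical) against the proliferation score (left) and against the slope of all genes' log2 deviations on transcript length (right). Each point is a library; young obese 1 and 2 lie at -0.42 with low scores and high length slopes, and young lean 26 at 0.44 with a score of -0.56 and a slope of -0.214.

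Genes that work with the ribosome were taken from listed gene sets in the same fits, and their counts are to be read against the 5.37% of all genes that fell and the 3.46% that rose in young obese mice. In young obese mice 0 of 5 other mitochondrial ribosome subunits passed, with Dap3, a GTP-binding small-subunit protein, at 74.1 ± 6.26 CPM in young obese mice and 82.6 ± 10.9 CPM in young lean mice (SD, n = 8 each). Of 27 assembly factors 2 fell (7.41%), near the share of all genes, and 0 rose, with a median of -0.16. Ngrn, needed for the large ribosomal RNA, was at 8.87 ± 0.797 CPM in young obese mice and 11.9 ± 3.28 CPM in young lean mice (log2 fold change -0.42, edgeR adjusted p = 0.0303). Malsu1, which keeps the subunits apart during assembly, was at 13.2 ± 1.24 CPM in young obese mice and 17.5 ± 5.16 CPM in young lean mice (-0.41, adjusted p = 0.0438).

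Of 14 translation factors 1 fell (7.14%), the elongation factor 4 homologue Guf1, with 18.1 ± 2.98 CPM in young obese mice and 26.1 ± 7.89 CPM in young lean mice (-0.52, edgeR adjusted p = 0.0345). Of 17 mitochondrial aminoacyl-tRNA synthetases 1 fell (5.88%), the phenylalanine enzyme Fars2, with 10.5 ± 0.673 CPM in young obese mice and 13.2 ± 1.41 CPM in young lean mice (-0.33, adjusted p = 0.0151). The ranges of Fars2 did not overlap, at 9.65 to 11.4 CPM in young obese and 11.6 to 15.5 CPM in young lean mice. Of 12 chaperones and proteases 1 rose (8.33%), Afg3l2, a subunit of the m-AAA protease that matures Mrpl32, with 58.4 ± 3.31 CPM in young obese mice and 49.0 ± 4.14 CPM in young lean mice (0.25, adjusted p = 0.0478). Of 21 genes of mitochondrial transcription and RNA processing 2 fell (9.52%) and 0 rose, with a median of -0.02. Hsd17b10, a subunit of mitochondrial RNase P, was at 48.1 ± 3.16 CPM in young obese mice and 65.6 ± 11.4 CPM in young lean mice (-0.45, edgeR adjusted p = 0.0136), and Slirp, which keeps mitochondrial mRNAs stable, at 13.1 ± 2.23 CPM in young obese mice and 17.7 ± 4.92 CPM in young lean mice (-0.43, adjusted p = 0.0414). With 1 or 2 genes called in each, the shares of these sets say little beyond the genes named.

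The substrates and regulators were measured too. Of the 13 mitochondrially encoded mRNAs 8 were tested and 0 passed, with a median of -0.09. The ribosomal RNAs of the organelle did not pass, with mt-Rnr1 at 176 ± 43.5 CPM in young obese mice and 336 ± 163 CPM in young lean mice (edgeR adjusted p = 0.0662) and mt-Rnr2 at 563 ± 185 CPM in young obese mice and 752 ± 283 CPM in young lean mice (adjusted p = 0.335). How much ribosomal RNA a library holds also depends on how it was prepared, which was not tested. Of 8 tested regulators of nuclear mitochondrial genes 2 rose and 0 fell. Pprc1, a coactivator related to PGC-1alpha, was at 83.3 ± 9.08 CPM in young obese mice and 55.1 ± 4.43 CPM in young lean mice (0.60, adjusted p = 0.00901), and Myc at 120 ± 23.6 CPM in young obese mice and 86.2 ± 12.2 CPM in young lean mice (0.47, adjusted p = 0.034). The regulators that passed had positive fold changes, while the 12 members that passed had negative ones.

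Other large gene sets had more decreases in the same comparison. In young obese mice 57 of 76 cytosolic ribosomal protein genes fell (75%), with a median of -0.44. Of 72 nuclear genes of oxidative phosphorylation complexes 42 fell (58.3%), with a median of -0.37. Over all genes 5.37% fell and 3.46% rose, and 0 of either set rose. Young lean 26 had the highest median log2 deviation of both sets, at 0.82 and 0.72 in that order. Whether these counts hold without that library or with the length and GC offset was not examined. The smallest adjusted p of the cytosolic set were those of Rpl36, at 332 ± 15.3 CPM in young obese mice and 506 ± 170 CPM in young lean mice (-0.61, edgeR adjusted p = 0.0172), Rps21 (-0.72, 0.0201) and Rps19 (-0.64, 0.0201). Those of oxidative phosphorylation were the complex I subunits Ndufa1, at 27.3 ± 3.42 CPM in young obese mice and 41.1 ± 10.2 CPM in young lean mice (-0.59, adjusted p = 0.0151), Ndufa13 (-0.62, 0.0201) and Ndufa2 (-0.56, 0.0209). Of 23 tested import genes 2 fell (Tomm7 and Timm17b) and 1 rose (Pmpca), and 0 of 17 citric acid cycle genes passed.

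In aged obese against young lean mice, 4.65% of all genes fell and 5.62% rose, and calls in these sets were few and went both ways. Of 27 assembly factors 3 fell (11.1%): Ngrn by 0.58, Tfb1m, which methylates the small ribosomal RNA, by 0.66 and Mrm2, a methyltransferase of the large ribosomal RNA, by 0.56 on the log2 scale (edgeR adjusted p = 0.00896, 0.0214 and 0.0415 in that order). Of 14 translation factors the release factor Mtrf1 fell, with 4 ± 1.27 CPM in aged obese mice (n = 6) and 6.06 ± 0.469 CPM in young lean mice (n = 8; adjusted p = 0.0405). Of 17 synthetases 2 fell (11.8%), Rars2 by 0.41 and Ears2 by 0.37 (adjusted p = 0.0237 and 0.0465 in that order), the enzymes for arginine and glutamate. Of 12 chaperones and proteases Lonp1, the Lon protease, fell by 0.64 (adjusted p = 0.0289), and of 72 oxidative phosphorylation genes Uqcrq, of complex III, fell by 0.56 (adjusted p = 0.0451).

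Other genes rose in aged obese against young lean mice. Of 8 tested regulators of nuclear mitochondrial genes 3 rose (37.5%) and 0 fell. Pprc1 was at 90.8 ± 22.5 CPM in aged obese mice and 55.1 ± 4.43 CPM in young lean mice (0.72, edgeR adjusted p = 0.00267), and Gabpb1, a subunit of the ETS factor GABP, at 24.4 ± 6.25 CPM in aged obese mice and 18.3 ± 2.36 CPM in young lean mice (0.41, adjusted p = 0.0338). Ppargc1b was low, at 0.658 ± 0.56 CPM in aged obese mice and 0.171 ± 0.0529 CPM in young lean mice (1.90, adjusted p = 0.0087). Of 21 genes of mitochondrial transcription and RNA processing Polg, the mitochondrial DNA polymerase, rose by 0.48 (adjusted p = 0.00857), whereas Hsd17b10 and Ssbp1, the mitochondrial single-stranded DNA binding protein, each fell by 0.38 (adjusted p = 0.0247 and 0.0349 in that order). Of 17 citric acid cycle genes Dlst, the E2 subunit of 2-oxoglutarate dehydrogenase, rose by 0.36 (adjusted p = 0.0281).

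For age in obese mice, Fars2 rose by 0.30, while the chaperone Hspa9 had a log2 fold change of -0.46 and Yy1 of -0.30, both lower in aged obese mice (edgeR adjusted p = 0.0406, 0.0458 and 0.0344 in that order). Obesity in aged mice and age in lean mice gave 0 calls in the listed sets. Markers passed as well. Of the 7 adipose stem cell markers 1 rose in young obese mice, Itgb1, which many cell types express (0.26, edgeR adjusted p = 0.0347). Fold changes were negative for 5 of the 7, with a median of -0.07. In aged obese against young lean mice Itgb1, Eng and Pdgfrb of the adipose stem cell markers rose by 0.34, 0.53 and 0.52, and Cspg4 and Myh11 of the mural markers by 1.5 and 1.2 (adjusted p between 0.0124 and 0.0467). In that comparison 2 of the 7 adipose stem cell markers and 1 of the 5 tested mural markers had negative fold changes. Pdgfrb and Cspg4 also rose in aged obese against young obese mice, by 0.56 and 2.04 (adjusted p = 0.0419 and 0.0223 in that order). The part of these shifts in the values of the members was not tested.

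Counts of some members are less certain than others. Exons of 30 of the 77 members overlap another listed gene, 5 of them on the same strand, and the strand setting of the counting is not given in the sources used here. Of the 12 fallen members this concerns 4: Mrpl14 with Tmem63b, Mrpl27 with Eme1 and Mrpl58 with Ict1os on the opposite strand, and Mrps24 with Urgcp on the same strand. Processed pseudogenes of Mrps36, Mrpl23 and Mrpl48 held 18 to 193 counts each over all 30 libraries.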

How the data were processed

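RNA-seq counts per gene of 30 libraries were used as the authors deposited them, as raw counts with no normalisation. Per the submitters' processing notes the tools were STAR, HTSeq 0.7.0 and DESeq2 1.12.4. The genome build, annotation and strand setting are not given in the sources used here. Symbols were paired by Ensembl ID through GENCODE M21 annotation for 36639 rows, and 1922 rows had none. The 5 rows naming no gene stayed out of library sizes. Libraries held 30597765 to 47970233 counts.

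Groups came from the labels. Counts were fitted with edgeR 4.0.16 in R 4.3.3 (TMM, filterByExpr by group, glmQLFit and glmQLFTest, all libraries in 1 model, adjusted p below 0.05). CPM are scaled by TMM. Log2 deviations used a prior count of 2. Alternatives were size factors by relative log expression, no filter, DESeq2 1.42.0, voom with sample weights in limma 3.58.1, a length and GC offset, only the compared groups, a replicate block and left-out libraries. The fits were tested on simulated data. P-values measure the spread between these libraries, each made from the cultured cells of 1 mouse, so differences between mice, cultures and library preparation are not separated.

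Members and gene lists were chosen with earlier results of these data known. Named in each comparison are the called members with the 12 largest changes, or the 3 smallest adjusted p where none passed. Members with the highest, lowest, widest or narrowest levels, the S18 paralogs, members with symbols or functions apart from structure, and up to 3 called genes of each other list in each comparison are named too. Transcript length is the median over protein-coding transcripts of a gene. The proliferation score and its fits were chosen after seeing the data.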

Additional observations from a re-analysis of the deposited data

Results flagged for a closer look

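Examined were the 20 members named in the comparisons by the rule above, not all members named in the text. They gave 80 combinations of a member and a group, and with the median over members in each of 4 groups 84 in all. Of these, 4 held a library far from the rest of its group. How many chance would give was not tested, and the combinations share libraries. Young lean 26 stood out for Mrps21 at 61.5 CPM, with the next library at 40.9 CPM. It also stood out for Mrps9 at 37.3 CPM, with the next at 29.4 CPM, and for Mrpl52 at 132 CPM, with the next at 90.9 CPM. Aged lean 16 stood out for Mrps9 at 30.6 CPM, with the next at 27.4 CPM. Young lean 26 was also the shallowest library, at 30597765 counts, and had the lowest length slope, at -0.214 per doubling. The part of depth and length slope in these values was not tested. Members named for other reasons were not examined in this way, and some hold libraries that lie apart. Young obese 22 had 29.13 CPM of Mrps6, with the next young obese library at 15.2 CPM. Aged obese 10 had 30.48 CPM of Mrps2, with the next aged obese library at 23.23 CPM.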

How the results depend on the processing

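In young mice 12 members fell with obesity; counts of members called were 1 without a filter on low counts, 25 with voom (2 higher and 23 lower), 3 with the length and GC offset, 7 with only the compared groups, 0 without young obese 1 and 2 together and 39 with the proliferation score as covariate. Relative log expression gave 10, DESeq2 13 and the fit without aged obese 10 and 12 gave 14. For aged obese against young lean mice, where 0 were called, DESeq2 gave 1, voom 2, the fit without young obese 1 and 2 gave 3, the fit without aged obese 10 and 12 gave 4 and the covariate 6. For age in obese mice, voom gave 8 and the fit without aged obese 10 and 12 gave 3. The other comparisons stayed at 0 under each alternative run. Leaving out 1 library gave 0 to 25 members for obesity in young mice and 0 to 8 for aged obese against young lean mice. In young mice the count was 0 without young lean 7 or young lean 26, 3 when young lean 27 or young obese 1 was left out, 4 when young obese 2 was, 5 without young lean 23 or either of young obese 20 and 21, 6 without young obese 23, 7 without any of young obese 19, aged lean 19 and aged lean 20, and 25 without young lean YL512. For aged obese against young lean mice it was 8 without young lean YL512, 6 without aged obese 16, 2 without young lean 1 or young obese 1, and 1 without young lean 24, young lean 25, young obese 2, aged lean 15, aged lean 16, aged obese 10 or aged obese 17. Members that went with the proliferation score numbered 60 in the fit of all groups. They numbered 0 within young lean libraries (median slope -0.29), 25 within aged lean and 21 within aged obese libraries. Other settings and left-out libraries gave 41 to 70. Each count is over all members tested in that fit and is not a share of the 60. The cause of these changes was not tested, apart from fewer libraries or genes where the setting itself removes or adds them.

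The numbers in the labels name individual mice. Young groups share 2 of them, whose libraries' deviations correlated at 0.08 and 0.21, and aged groups share 4, at -0.52 to 0.39. The labels do not say that a shared number pairs mice, and correlations of so few pairs cannot settle it. A replicate block over these libraries gave 0 members in young mice (median -0.36) and 0 in aged mice. The other comparisons share no number.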
